A study of Mus musculus with 6 samples.

Results

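Histone deacetylases remove acetyl groups from lysines of histones and other proteins, and histone acetyltransferases add them. Among the zinc-dependent deacetylases (classes I, II and IV) are the enzymes that hydroxamates such as SAHA (vorinostat) block at the active site. The study tested SAHA on pheochromocytoma cells. The sirtuins use NAD as a cosubstrate and are not inhibited by SAHA. Class I deacetylases act inside corepressor complexes, among them Sin3, NuRD, CoREST and NCoR. The repressor REST recruits Sin3 and CoREST to neuronal genes, which it is known to repress outside neurons.

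The members were 47 genes of these enzymes and complexes, chosen by symbol and not by any measured value, and 46 of them had a probe set that the array's annotation assigns to exactly 1 gene, out of 19937 genes measured in this way. Ncor1 was not analysed here. Affymetrix Mouse Gene 1.0 ST arrays measured RNA of 2 mouse pheochromocytoma lines, with 3 arrays of MTT and 3 of MPC cells and no treatment named in the labels. The parent line, MPC, was established from Nf1 knock-out mice and is used as a model of differentiated tumours. MTT is its faster-growing descendant, taken from metastases that MPC cells formed in the liver. Each line is a single cell line, the methods describe culture of both lines but array preparation for MTT samples only, and the tissue source is labelled as liver metastasis on all 6 samples, so that the MPC group rests on the title and the cell type label. Whether the 3 samples of each line came from separate cultures is not stated, and p-values then measure only how these samples spread, which may be technical. The question that the design poses for these genes is whether the targets of SAHA and the complexes that hold them differ between the metastasis-derived line and its parent.

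Signals are log2 values after RMA, a method that subtracts background, equalises the distribution of the arrays and combines the probes of a probe set, so a difference of 1 is a doubling. Levels of different genes cannot be set against each other on this scale. Median signals of the arrays ran from 7.73 to 7.77. Of 11 measured chromaffin markers 10 lay above the median signal of 7.74, and Th, the rate-limiting enzyme of catecholamine synthesis, read a mean of 13.46 in MTT and 13.49 in MPC cells. Of the 11, the amine transporter Slc18a1 (log2 difference 0.27) and the transcription factor Gata3 (0.19) were higher in MTT cells and the granin Chgb (-0.15) was lower (limma, adjusted p under 0.05). Of 36 measured markers of hepatocytes, adrenal cortex, leukocytes, endothelium, fibroblasts and Schwann cells none differed between the lines (limma, adjusted p under 0.05) and 1 had an unadjusted p under 0.05. All 7 measured hepatocyte markers lay under the median, while 7 of the 36 markers lay above it. Those above it included 3 of 6 fibroblast and 2 of 7 adrenal cortex markers. In RNA of whole cultures, fewer cells that express a gene and less RNA per cell cannot be told apart.

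Differences between the 2 lines were small over the set as a whole. At an adjusted p under 0.05 from limma, 1 member (Sirt5) was higher in MTT cells and 2 (Hdac11 and Kat5) were lower, which is 6.52% of the 46 members, against 7.87% of all genes tested (3.93% higher and 3.94% lower). Among genes above the median signal, where 45 of the 46 members lay, 11.8% were called. The median log2 difference was -0.01 over the members and -0.01 over all genes, and the median absolute difference was 0.04 over the members and 0.05 over all genes. An unadjusted p under 0.05 was found for 4 members with a higher and 4 with a lower signal in MTT cells, or 17.4% of them, against 20.5% of all genes and 27.8% of those above the median signal. The 3 MTT arrays did not overlap with the 3 MPC arrays for 17 members (7 above and 10 below), or 37% against 27.2% of all genes. That share was 38% among genes above the median signal. No test sets the members apart from other genes. Replicate arrays repeated each other closely, with a median standard deviation within a line of 0.03 for the members.

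**Figure D1:**
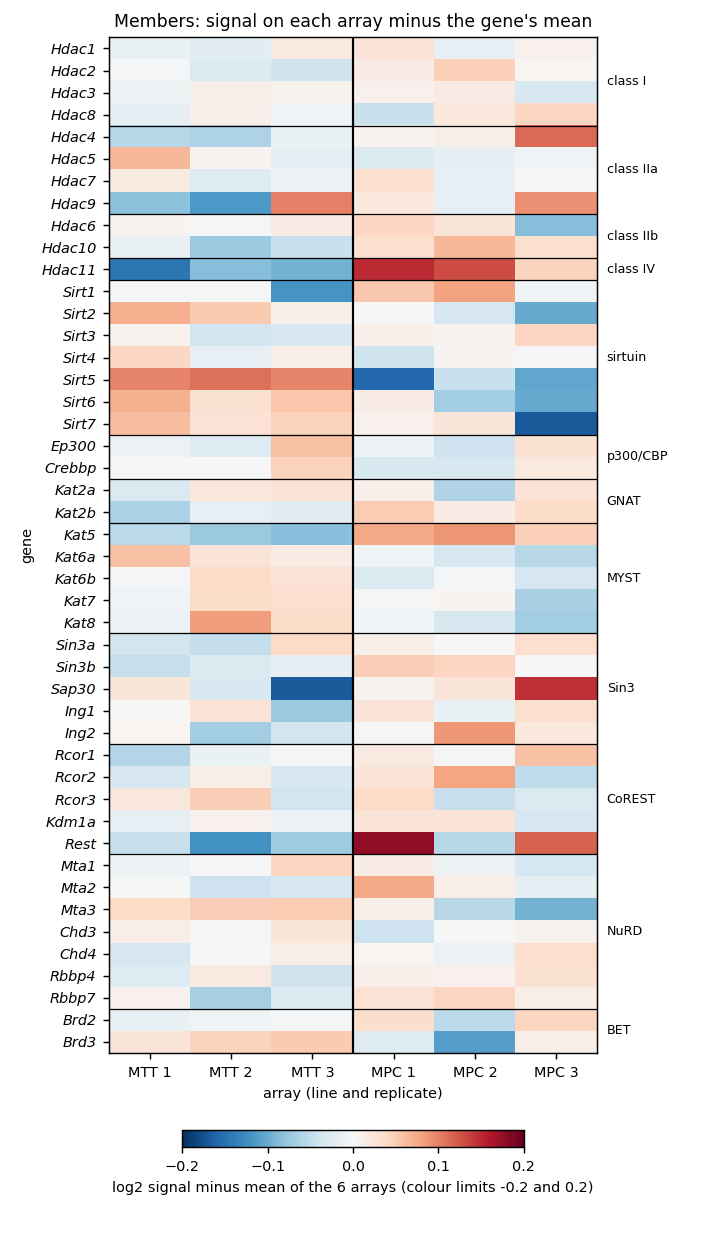
Each row is 1 of the 46 members and each column 1 array (MTT left, MPC right); the colour gives the log2 signal minus the gene's mean over the 6 arrays, red above and blue below, with limits at -0.2 and 0.2. Most rows are pale. Hdac11, Sirt5 and Kat5 are among the 17 members whose arrays do not overlap between the lines (37%, against 27.2% of all genes and 38% of those above the median signal).

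Hdac11, the sole class IV deacetylase and an enzyme that removes long fatty acyl groups besides acetyl groups, was the only called zinc-dependent deacetylase. It read a log2 signal of 9.08, 9.14 and 9.13 on the MTT arrays and 9.37, 9.35 and 9.27 on the MPC arrays. All MTT values lay below all MPC values, and the gap between the groups was larger than the range within either of them. The log2 difference was -0.22 (standard error 0.04, 95% interval -0.31 to -0.12, limma adjusted p = 0.0145), a 1.16-fold lower signal in MTT cells. Hdac11 was not called without MTT replicate 1 (adjusted p = 0.0625), MPC replicate 1 (0.0535) or MPC replicate 2 (0.0594) or with ordinary variances (0.0721), and its log2 difference stayed between -0.25 and -0.20 with any 1 array left out.

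Sirt5 is the mitochondrial sirtuin that removes succinyl, malonyl and glutaryl groups from lysines. It was the only called sirtuin and the only member called higher in MTT cells. Its log2 signal was 8.81, 8.82 and 8.81 on the MTT arrays and 8.56, 8.67 and 8.61 on the MPC arrays. The MTT arrays were nearly identical and stood above all MPC arrays, which spread more widely. The log2 difference was 0.20 (standard error 0.04, 95% interval 0.12 to 0.29, limma adjusted p = 0.0149), a 1.15-fold higher signal in MTT cells. Sirt5 was not called without MTT replicate 1, 2 or 3 (adjusted p = 0.0561, 0.0647 and 0.0505) or with ordinary variances (0.0646).

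Kat5, the MYST acetyltransferase Tip60 of the NuA4 complex, which acetylates H4, H2A and the kinase Atm after DNA damage, was the only called acetyltransferase. It read a log2 signal of 9.98, 9.96 and 9.95 in MTT and 10.11, 10.12 and 10.08 in MPC cells. The groups did not overlap, and both were tight. The log2 difference was -0.14 (standard error 0.03, 95% interval -0.21 to -0.07, limma adjusted p = 0.0333), which is 1.10-fold. The call of Kat5 was kept in only 1 of the 6 fits that left out an array (without MPC replicate 3, adjusted p = 0.0482), with adjusted p from 0.0815 without MTT replicate 1 to 0.119 without MPC replicate 2 in the other 5. Kat5 was also not called with a block for the replicate number.

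The sequences just before listed start sites of these 3 genes are shown because they are the only members called in either direction. Each is the 100 bases upstream of the listed start (RefSeq, build GRCm38.p6), 5′ to 3′ on the gene's strand, with CG dinucleotides in capitals. For Kat5, which has 2 listed starts, the more upstream is used. All 3 stretches lie inside the RefSeq span of their gene, whose 5′ end is further upstream, so they are not the sequence before the whole gene.
Hdac11, chr6:91156715-91156814, plus strand: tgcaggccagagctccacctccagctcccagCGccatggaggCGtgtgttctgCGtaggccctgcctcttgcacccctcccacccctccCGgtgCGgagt
Sirt5, chr13:43365435-43365534, plus strand: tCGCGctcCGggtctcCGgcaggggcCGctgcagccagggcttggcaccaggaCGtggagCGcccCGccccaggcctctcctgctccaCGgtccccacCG
Kat5, chr19:5610095-5610194, minus strand: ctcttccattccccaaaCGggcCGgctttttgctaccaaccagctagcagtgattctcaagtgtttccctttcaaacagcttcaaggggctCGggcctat
The stretches hold 5, 10 and 3 CG dinucleotides. Over the whole windows of 250 bases before to 50 bases after the start, the 3 genes had 22, 15 and 19, and the members with a window (39 genes, 57 windows) had a median of 23, against 15 over the windows of all genes tested. The other complex subunits described below had a median of 25.5. CG-rich start regions are a general feature of genes expressed in most cell types, and nothing here measures methylation or binding at them.

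**Figure D2:**
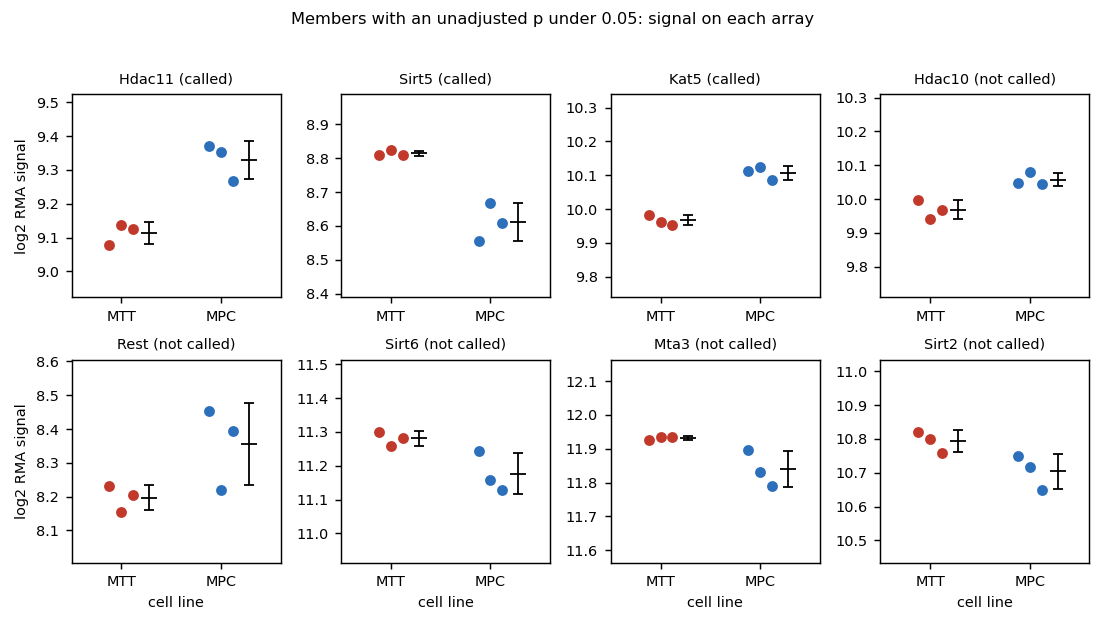
log2 RMA signal (vertical axis, 0.6 units tall in every panel) on the 3 MTT (red) and 3 MPC (blue) arrays for the 8 members with an unadjusted p under 0.05; bars are mean and SD of 3 arrays. The lines are separate for 7 of them, and for Rest the MPC array at 8.22 lies within the MTT range of 8.16 to 8.23. Because the genes were chosen by their p on these same arrays, this separation is no further support. Arrays did not overlap for 27.2% of all genes and 38% of those above the median signal.

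Sirt5 and Kat5 lie on the 2 mouse chromosomes whose genes were shifted as a whole between the lines. Among genes above the median signal, the median log2 difference was 0.18 over 408 genes of chromosome 13 and -0.10 over 381 genes of chromosome 19, against -0.01 over the 10633 others. The medians of the 18 other chromosomes (autosomes and X) ran from -0.03 to 0.02. Sirt5, at 0.20, sat in the middle of the distribution of chromosome 13 (quartiles 0.11 and 0.25), with 175 of its genes above it and 232 below. Kat5, at -0.14, sat within the quartiles of chromosome 19 (-0.16 and -0.04). With every array centred on the median of each chromosome, Sirt5 had a log2 difference of -0.03 (limma adjusted p = 0.742) and Kat5 one of -0.01 (limma adjusted p = 0.88), while Hdac11, on chromosome 6, remained called (limma adjusted p under 0.05). Rcor2 and Mta2, also on chromosome 19, had log2 differences of -0.04 and -0.05 before this centring and 0.09 and 0.08 after it, and were not called in either. Leaving out chromosomes 13 and 19, 1 of 42 members was called, or 2.38%, against 6.42% of all genes (6 members, or 14.3%, had an unadjusted p under 0.05, against 18.8% of all genes).

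**Figure D3:**
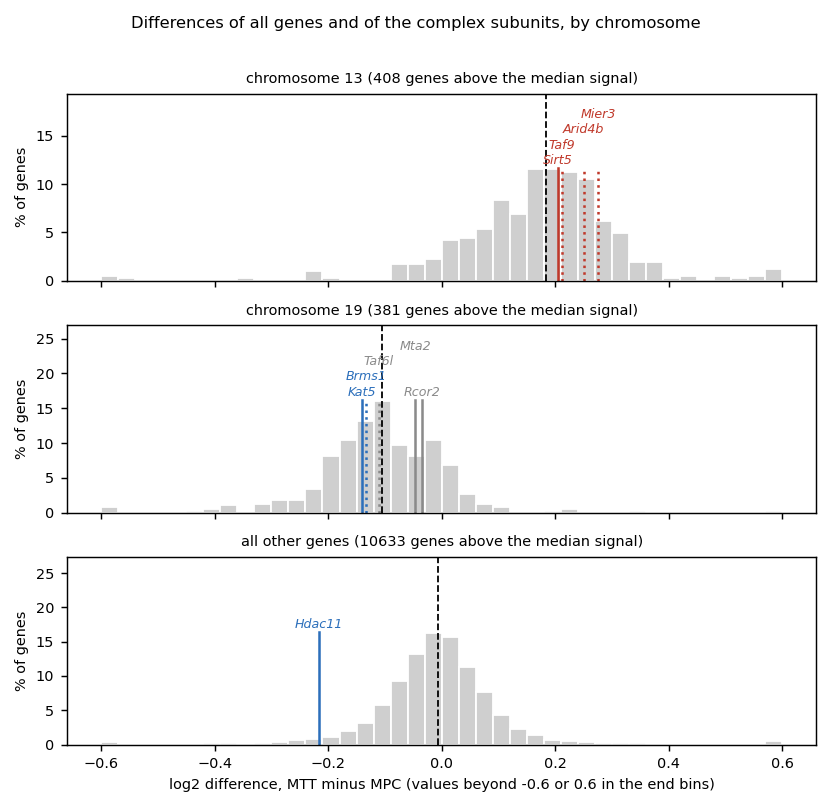
Distribution of log2 differences between MTT and MPC cells (horizontal axis) as a percentage of genes above the median signal (vertical axis) on chromosome 13, chromosome 19 and all others; dashed lines are medians, solid coloured lines members and dotted lines other complex subunits (red higher, blue lower, grey not called). Sirt5 and Kat5 lie inside the bulk of their own chromosomes, and Hdac11, at -0.22, lies in the tail of the remaining genes.

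The class I deacetylases Hdac1, Hdac2, Hdac3 and Hdac8, the enzymes through which SAHA is mainly thought to act on chromatin, had log2 differences of -0.05 to 0.00, and none was called. Hdac1 and Hdac2, the paired catalytic subunits of Sin3, NuRD and CoREST, were close in both lines. Hdac1 read 12.46, 12.45 and 12.49 in MTT and 12.50, 12.46 and 12.48 in MPC cells, with overlapping arrays. Hdac2 read 12.36, 12.34 and 12.33 in MTT and 12.38, 12.41 and 12.37 in MPC cells, where the arrays did not overlap although the difference of -0.05 did not pass (limma adjusted p = 0.479). Hdac3, the enzyme of the NCoR complex, read 12.28, 12.31 and 12.30 in MTT and 12.30, 12.31 and 12.26 in MPC cells. The 95% intervals of all 4 class I differences lay between -0.12 and 0.08, whose outer bound is 1.09-fold.

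The class IIa deacetylases, which have little catalytic activity of their own and carry signals to NCoR and Mef2 factors, were not called. Hdac4 had the largest difference of the class, with 10.83, 10.83 and 10.88 in MTT and 10.90, 10.90 and 11.00 in MPC cells. The arrays of Hdac4 did not overlap, and its difference of -0.09 did not pass (limma adjusted p = 0.264). The less bright of the 2 probe sets of Hdac4 had a difference of 0.03, so the probe sets disagreed in sign. Hdac5 and Hdac7 had differences of 0.04 and -0.01. Hdac9, at 7.01 the only member under the median signal, is not shown to lie above background, and its difference of -0.06 is bounded by -0.20 and 0.07.
Of the class IIb enzymes, Hdac6 is the cytoplasmic deacetylase of tubulin and Hdac10 deacetylates polyamines. Hdac6 read 10.03, 10.02 and 10.04 in MTT and 10.07, 10.05 and 9.94 in MPC cells, and the groups overlapped through the low MPC replicate 3. Hdac10 read 10.00, 9.94 and 9.97 in MTT and 10.05, 10.08 and 10.04 in MPC cells, with no overlap. The log2 difference of Hdac10 was -0.09 (95% interval -0.16 to -0.01), and it did not pass over all genes (unadjusted p = 0.0283, limma adjusted p = 0.176). The 10 zinc-dependent deacetylases other than Hdac11 had 95% intervals between -0.20 and 0.12.

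Sirtuins had 5 of 7 differences above 0, with a median log2 difference of 0.09 against -0.01 over all genes. Of the 7, 1 was called (14.3%, against 7.87% of all genes), namely Sirt5, whose difference turned to -0.03 with chromosomes centred. With Sirt5, 3 of them had an unadjusted p under 0.05 (42.9%, against 20.5% of all genes), all with the higher signal in MTT cells. All 7 lay above the median signal, where 11.8% of genes were called and 27.8% had an unadjusted p under 0.05. The group as such was not tested. Sirt6, a chromatin-bound deacetylase of H3 with a role in DNA repair, read 11.30, 11.26 and 11.28 in MTT and 11.24, 11.16 and 11.13 in MPC cells. Its arrays did not overlap, and the difference of 0.10 did not pass (unadjusted p = 0.0304, limma adjusted p = 0.183). Sirt2, the mainly cytoplasmic tubulin deacetylase, read 10.82, 10.80 and 10.76 in MTT and 10.75, 10.72 and 10.65 in MPC cells, again without overlap (log2 difference 0.09, limma adjusted p = 0.243). Sirt7, the nucleolar sirtuin, had a difference of the same size, 0.09, of which 0.03 was left without MPC replicate 3. That array gave the lowest of the 6 values for Sirt2, Sirt6 and Sirt7, and without it Sirt2 had a difference of 0.06 and Sirt6 one of 0.08.
Sirt1, the nuclear deacetylase of p53 and histones, went the other way at -0.08 (limma adjusted p = 0.345) with overlapping arrays. The mitochondrial Sirt3 and Sirt4 had differences of -0.04 and 0.03. Sirt3, Sirt4 and Sirt5 share the mitochondrion as their place of action, and only Sirt5 was called of these 3; whether the differences differ from each other was not tested.

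**Figure D4:**
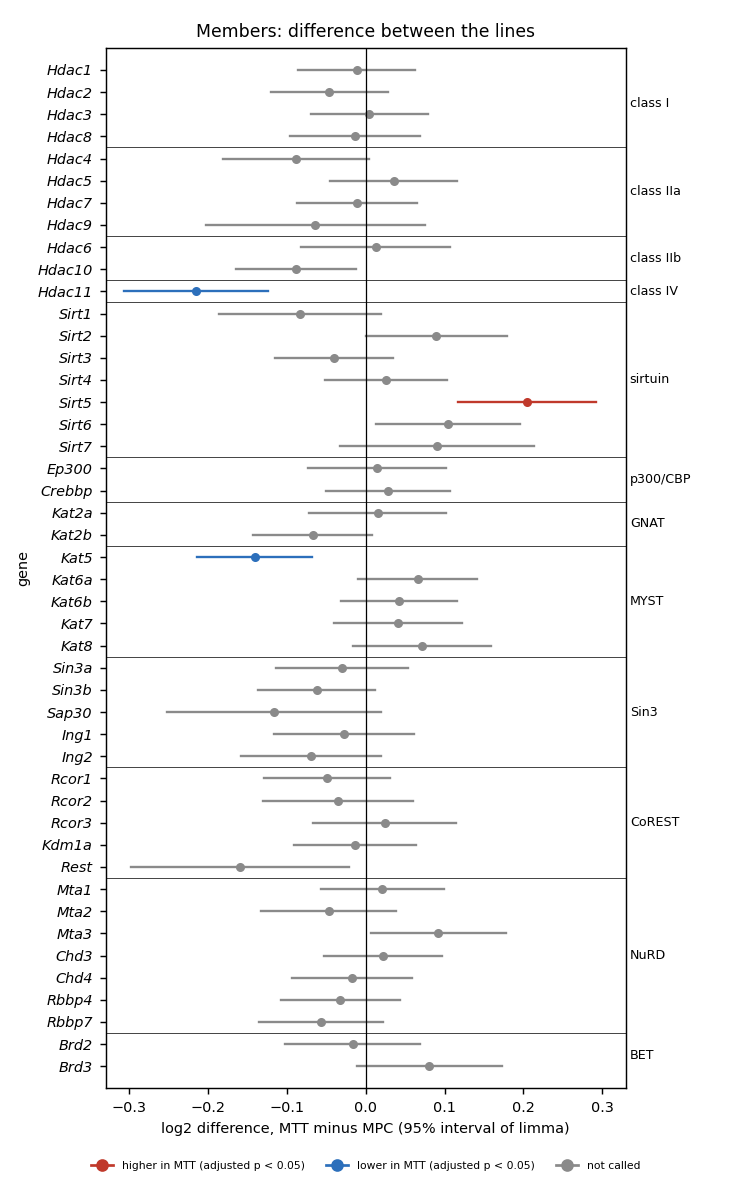
log2 difference between MTT and MPC cells (points) with the 95% interval of limma (bars) for the 46 members, ordered by role; red points passed an adjusted p of 0.05 with MTT higher, blue with MTT lower, and grey did not pass. All intervals of the 43 members that were not called lie between -0.30 and 0.21.

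No acetyltransferase other than Kat5 was called. Ep300 and Crebbp, the paired coactivator acetyltransferases of H3K27, had differences of 0.01 and 0.03, with 95% intervals between -0.07 and 0.11. Crebbp read 11.44, 11.44 and 11.49 in MTT and 11.41, 11.41 and 11.46 in MPC cells, and the groups overlapped. Of the GNAT enzymes of the SAGA and ATAC complexes, Kat2a had a difference of 0.02 and Kat2b one of -0.07. Kat2b read 9.22, 9.27 and 9.26 in MTT and 9.33, 9.30 and 9.32 in MPC cells, without overlap and not past the test (limma adjusted p = 0.294). The MYST enzymes Kat6a, Kat6b, Kat7 and Kat8 had differences of 0.04 to 0.07, so that Kat5 was the only MYST member with a negative difference. Kat8, the H4K16 acetyltransferase of the MSL and NSL complexes, had the largest of these at 0.07 (limma adjusted p = 0.342), with overlapping arrays.

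No member of the Sin3, NuRD or CoREST complexes outside the deacetylases was called. The 5 members of the Sin3 complex all had negative differences, from -0.12 to -0.03, with a median of -0.06, and none had an unadjusted p under 0.05. Further Sin3 subunits that are not members were mixed in sign. Arid4a (0.07), Sap18 (0.05) and Suds3 (0.03) were among those above 0, and Brms1 (-0.13), Sap30l (-0.07) and Sap130 (-0.01) lay below it. Sap30, a bridging subunit between Sin3 and the deacetylases, had the largest difference and the widest spread of the 5 members. It read 10.31, 10.25 and 10.12 in MTT and 10.29, 10.31 and 10.43 in MPC cells, and the groups overlapped. The difference of -0.12 (95% interval -0.25 to 0.02, limma adjusted p = 0.318) was -0.06 without MTT replicate 3 and -0.07 without MPC replicate 3. The scaffolds Sin3a and Sin3b had differences of -0.03 and -0.06, and the reader proteins Ing1 and Ing2, which bind methylated H3K4, of -0.03 and -0.07.

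In the NuRD complex, which joins deacetylases to a nucleosome remodeller, differences ran from -0.06 to 0.09 over 7 members. Mta3 had the largest, with 11.93, 11.93 and 11.94 in MTT and 11.90, 11.83 and 11.79 in MPC cells. The arrays of Mta3 did not overlap, and its difference of 0.09 did not pass (unadjusted p = 0.0379, limma adjusted p = 0.207). A dimmer probe set of Mta3, with a mean signal of 7.78, had a difference of -0.05. The paralogs Mta1 and Mta2 had differences of 0.02 and -0.05, the remodellers Chd3 and Chd4 of 0.02 and -0.02, and the histone chaperones Rbbp4 and Rbbp7 of -0.03 and -0.06. The BET proteins Brd2 and Brd3, readers of acetylated histones, had differences of -0.02 and 0.08. Brd3 read 10.02, 10.04 and 10.05 in MTT and 9.97, 9.88 and 10.01 in MPC cells, without overlap and not called (limma adjusted p = 0.306).

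The CoREST members Rcor1, Rcor2 and Rcor3 and the demethylase Kdm1a (LSD1), which removes methyl groups from H3K4 in that complex, had differences of -0.05 to 0.02. Rest, the zinc finger repressor that recruits them, had the largest difference of the group. With a mean signal of 8.28, Rest is not shown to lie above background. It read 8.23, 8.16 and 8.20 in MTT and 8.45, 8.22 and 8.40 in MPC cells. MPC replicate 2 lay within the MTT range, while the other MPC arrays lay above it. The log2 difference was -0.16 (standard error 0.06, 95% interval -0.30 to -0.02) and did not pass over all genes (unadjusted p = 0.029, limma adjusted p = 0.179). It was called without MPC replicate 2, at -0.23 (limma adjusted p = 0.0313), and in no other fit, with adjusted p from 0.0776 to 0.381 in those.

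Genes that REST is known to repress outside neurons were listed from general knowledge, with 45 of 48 measured. Of these, 12 were higher and 3 lower in MTT cells, or 33.3% called against 7.87% of all genes, and the median log2 difference was 0.08 against -0.01. Among the 45, 38 lay above the median signal, where 11.8% of genes were called. Higher granule and neuronal genes in MTT cells were known when the list was made, so the count is not independent support for a direction. Calb1, a calcium-binding protein of neurons, had the largest difference. It read 9.93, 9.88 and 9.86 in MTT and 9.03, 9.03 and 8.94 in MPC cells, and the groups were far apart (log2 difference 0.89, standard error 0.04, limma adjusted p = 1.48e-05). Chrnb2, a nicotinic receptor subunit, read 10.27, 10.18 and 10.21 in MTT and 9.72, 9.59 and 9.64 in MPC cells. It rose by 0.57 (limma adjusted p = 0.000177), beside Cadps at 0.76 and Scg2 at 0.55, which act in secretory granules.
The 3 called lower were Kcnh1, a voltage-gated potassium channel, at -0.27, Nefh, a neurofilament subunit, at -0.24, and the granin Chgb at -0.15. Kcnh1 read 9.28, 9.41 and 9.39 in MTT and 9.59, 9.63 and 9.65 in MPC cells, so the groups did not overlap. Of the 15 calls, those of 9 higher genes and Kcnh1 were kept in all 6 fits without 1 array. Nefh, Chgb and Celsr3 were called in 1 of the 6, and Hcn3 and Rundc3a in none. None of the 15 called genes lies on chromosome 13 or 19.

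**Figure D5:**
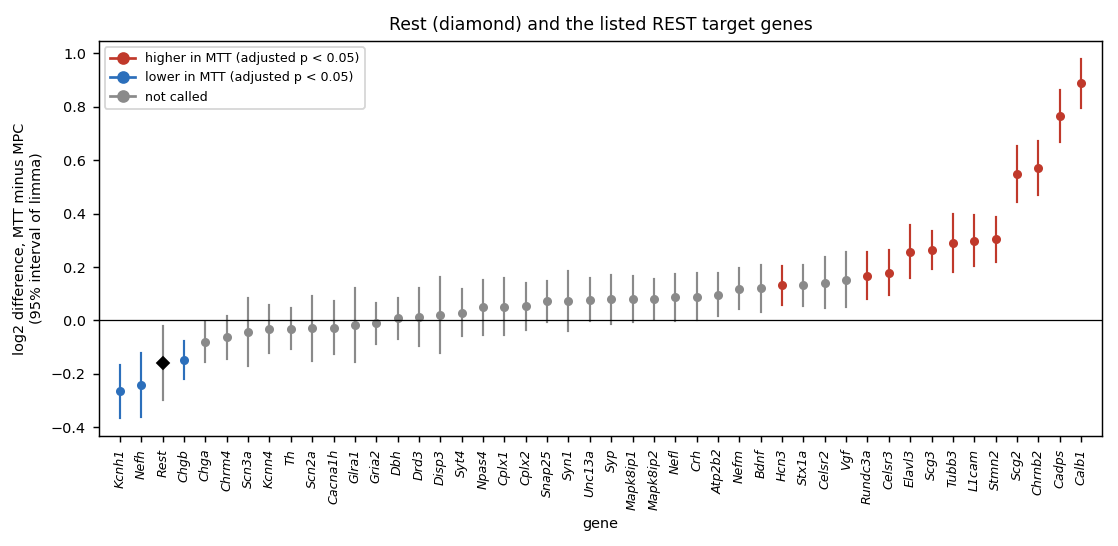
log2 difference between MTT and MPC cells with the 95% interval of limma (vertical axis) for Rest (diamond) and 45 listed REST target genes (horizontal axis, ordered by difference); red points passed an adjusted p of 0.05 with MTT higher, blue with MTT lower, and grey did not pass. Rest, at -0.16, stands near the low end, and the differences reach 0.89 for Calb1.

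The DNA element that REST binds is long, and its core, searched as AGCACC followed after 2 bases by GGNCAG (N is any base), was looked for on both strands of the RefSeq windows of 250 bases before to 50 bases after each start (GRCm38.p6). The core was found in the windows of 3 of the 29 listed targets that have a window, or 7.69% of their 39 windows, against 0.151% of the windows of all genes tested, and in none of those of the members. Because the list holds genes already known as REST targets, the higher share among them is not independent support. These 3 sites are printed, with the fixed bases of the core in capitals, because they show the element that was searched, beside the values of its gene.
Celsr3, chr9:108825917-108825938, plus strand: gttcAGCACCgtGGgCAGcact
Gria2, chr3:80802988-80803009, plus strand: ttttAGCACCgcGGaCAGcgct
Syn1, chrX:20921130-20921151, minus strand: attcAGCACCgcGGtCAGagcc
Of the 3 genes with this core 1 was called, and whether their differences differ from each other was not tested. Celsr3, an atypical cadherin of axon tracts, read 9.75, 9.73 and 9.80 in MTT and 9.62, 9.54 and 9.58 in MPC cells and was called (log2 difference 0.18, limma adjusted p = 0.0222), a call that was kept only without MPC replicate 1, with adjusted p from 0.0533 to 0.0859 without any other array. Gria2, an AMPA receptor subunit, read 11.25, 11.26 and 11.22 in MTT and 11.27, 11.27 and 11.22 in MPC cells, with a difference of -0.01. Syn1, a synaptic vesicle protein, had a difference of 0.07 (limma adjusted p = 0.458). Many REST sites lie outside such windows, and no binding was measured here.

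Other subunits of the same complexes, 86 measured of 89 listed, also differed little. In MTT cells 3 were higher and 1 was lower, or 4.65% against 7.87% of all genes, with a median log2 difference of 0.02. Among the 86, 84 lay above the median signal, where 11.8% of genes were called. The largest difference of the list, 0.30 for Cdk2ap1 (95% interval -0.19 to 0.80), was not called. MPC replicate 3 read 11.82 for Cdk2ap1, against 12.77 and 12.66 on the other MPC arrays. All 4 called subunits lie on the shifted chromosomes. Arid4b, a Sin3 subunit, rose by 0.25 (limma adjusted p = 0.00277), Mier3, an Hdac1-binding scaffold, by 0.28 (limma adjusted p = 0.00411), and Taf9, shared by TFIID and SAGA, by 0.21 (limma adjusted p = 0.018), all on chromosome 13. Brms1, a Sin3 subunit on chromosome 19, had a difference of -0.13 (limma adjusted p = 0.0496), and its call ended in all 6 fits without 1 array (adjusted p from 0.0567 to 0.166). Taf9 was not called without MTT replicate 1 (adjusted p = 0.0561), MPC replicate 1 (0.0641) or MPC replicate 2 (0.0659). With each chromosome centred the 4 had differences of 0.01, 0.04, -0.03 and -0.01 and none was called. Of the 81 subunits on other chromosomes none was called with limma, against 6.42% of all genes there, while 12, or 14.8%, had an unadjusted p under 0.05, against 18.8%. With a mean-variance trend 5 of them passed as higher (Dnttip1, Kansl1, Kansl3, Mbd3 and Usp22) and Hat1 and Mier1 as lower, and Kansl3 passed as higher with each chromosome centred.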

How the data were processed

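RNA of 3 MTT and 3 MPC samples was read on 1 array each. The authors deposited log2 values after RMA (background subtraction, quantile normalization, probe set summary). Partek and R are the software that the methods give for RMA, while the submitters' processing notes list Expression Console by Affymetrix besides RMA, with no version stated in either. The deposited values are not the Z-scores that the methods mention.

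From 34760 probe sets, the 21640 with exactly 1 gene symbol in the platform annotation were kept (1321 had several, 11799 are not named here), symbols were updated through the RefSeq table of GRCm38.p6 (21620 matched), and the brightest probe set of a gene by its mean over the 6 arrays was used, which gave 19937 genes. No genome build is named for the files, so coordinates are printed only for RefSeq start windows. The lines were compared by limma 3.58.1 (lmFit and eBayes, two-sided) in R 4.3.3 over all genes with Benjamini-Hochberg adjustment and a threshold of 0.05. The test was tried on simulated data. Plots were made with matplotlib 3.10.9 under Python 3.11.15. Members, lists, tests and alternatives were chosen with earlier results of these data known. All 6 arrays entered; their number limits the precision.

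Every member is accounted for by role. Values on all arrays are given for members called, for those with an unadjusted p under 0.05, for Hdac1, Hdac2, Hdac3 and Hdac6, and for the largest difference of each role group; of the other lists, up to 4 genes in each direction with the smallest p are named, besides the genes with a REST core. Further values and genes were added after they were seen: the arrays of Celsr3 and Gria2, REST targets lost without 1 array, the subunits called with a trend, the chromaffin markers and the further Sin3 subunits. Cdk2ap1 and the counts of other markers above the median were added in the same way. As alternatives, the fit was run without moderation of variances, with a trend of variance on signal, with a block for the replicate number, with other choices among probe sets, a filter on dim genes, 2 further normalizations or centring by chromosome, and without each array in turn.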

Additional observations from a re-analysis of the deposited data

How the results depend on the processing

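The comparison was repeated under 15 other settings. Members higher in MTT cells (1) numbered 0 with ordinary variances and 0 with each chromosome centred, and 0 to 1 with 1 array left out. Members lower (2) numbered 1 with ordinary variances, 1 with the replicate block, 1 with each chromosome centred, and 0 to 2 with 1 array left out. Other subunits higher (3) numbered 8 with a mean-variance trend, 8 among genes above the median signal, 6 with a second quantile normalization, 1 with each chromosome centred, and 2 to 4 with 1 array left out. Other subunits lower (1) numbered 3 with a trend, 3 among genes above the median signal, and 0 with ordinary variances, the replicate block, the dimmest probe set, median-centred arrays, each chromosome centred or any array left out. REST targets higher (12) numbered 8 to 16 under the 9 other settings and 9 to 10 with 1 array left out, and targets lower (3) numbered 1 with ordinary variances and 1 to 3 with 1 array left out. Calls over all genes (1569) numbered 824 with ordinary variances, 2416 with a trend, and 891 to 1276 with 1 array left out, where fewer samples remain. Other causes were not tested.

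Signs turned only near 0 or through a shifted chromosome or another probe set. With each chromosome centred, log2 differences were 0.0094 for Hdac1, -0.035 for Sirt5, -0.0054 for Kat2a, 0.092 for Rcor2, 0.0078 for Kdm1a, 0.080 for Mta2, 0.017 for Chd4, 0.0088 for Brd2 and -0.028 for Taf9. With the dimmest probe set they were 0.028 for Hdac4 and -0.054 for Mta3. With 1 array left out they ran from -0.010 to 0.014 for Hdac3 and from -0.039 to 0.0051 for Hdac8 (lowest and highest of 6 fits), from -0.026 to 0.037 for Hdac6, from -0.024 to 0.0024 for Hdac7, from -0.011 to 0.033 for Ep300, from -0.011 to 0.033 for Kat2a, from -0.049 to 0.0018 for Ing1 and from -0.047 to 0.00063 for Brd2.

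Samples of the 2 lines share replicate numbers in their labels. Deviations from the line means correlated by 0.128, 0.095 and 0.281 between samples of the same number, and by -0.183 to 0.097 between samples of different numbers. The main fit did not take the numbers as pairs, and whether same-numbered samples shared a step of preparation was not tested. With the replicate block, Kat5 had an adjusted p of 0.0564 (limma) and 1501 genes were called. With 3 arrays a line, differences that were not called were not detected at this precision, which does not show that they are absent. The 95% intervals are not adjusted over all genes, and some members with an interval that excludes 0 were not called, such as Hdac10 (-0.16 to -0.01).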
